A study of Homo sapiens with 4 samples.

Results

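The starting transcriptomes of 2 gastric cancer cell lines, HGC27 and MKN45, were compared before any drug effect was considered. HGC27 is an established line derived from an undifferentiated gastric carcinoma, and MKN45 is an established line derived from a poorly differentiated gastric adenocarcinoma. Both were grown in RPMI-1640 medium with 10% fetal bovine serum, and both vehicle groups received 0.1% DMSO for 24 h. In the sister groups each line received 0.3 µM periplocymarin, a cardiac glycoside, for 24 h. Poly(A) messenger RNA was captured and sequenced, with 1 library per line and treatment. Of 62710 genes in the table, 13031 had a mean of at least 1 FPKM (read abundance per unit of gene length, scaled for sequencing depth) over the 2 vehicle libraries and were called measured. Each line stands for a single tumour and each value for a single library, so no p-value, standard deviation or replicate spread could be given.

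Epithelial cells are held together by cadherin junctions, tight junctions and desmosomes, which are anchored to keratin filaments. In the epithelial to mesenchymal transition, transcription factors of the SNAI, ZEB and TWIST families repress these genes, and cells take on vimentin filaments and a fibrillar collagen matrix instead. The grainyhead, OVOL and ESRP proteins and the miR-200 microRNAs act on the epithelial side of this switch. Gastric cancer lines range from glandular, mucin-producing epithelium to cells with few epithelial features.

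Differences are given as log2(FPKM + 1) in HGC27 minus the same in MKN45, so positive values mean higher in HGC27, and a gene was called higher in a line at an absolute difference of at least 1. Where a pair of values is given without line names, HGC27 comes first. This scale understates the ratio of genes with low values. A gene at 0 in one line enters only at 2 FPKM or more in the other and is then called by construction, so the counts below are descriptions. The recovered reads came to 26184648 in vehicle HGC27 and 35654744 in vehicle MKN45. Mitochondrially encoded genes held 27.05% of the summed FPKM in HGC27 and 39.44% in MKN45. A 95% counting interval of the log2 ratio with both limits needs recovered reads above 0 in both lines. It was available for 330 of 348 listed genes that averaged 10 FPKM or more. Its median half-width was 0.070, with a largest of 3.89. Such intervals cover counting error only.

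In all, 1859 genes were higher in vehicle HGC27 (14.3% of the measured genes) and 2262 were higher in vehicle MKN45 (17.4%). The other 8910 genes lay within 2-fold, and the median difference was -0.04. Differences of at least 4-fold on this scale were seen for 637 genes higher in HGC27 and 903 higher in MKN45. Genes with no read in MKN45 and at least 10 FPKM in HGC27 numbered 45, and the reverse held for 84 genes. HGC27 genes made up 45.1% of the calls, and this share depended on the scaling: it was 50.9% after quantile normalization, 58.1% with library totals alone and 68.7% with equal sums of FPKM. Those scalings moved the median of all genes by 0.10, 0.22 and 0.42. None of the 428 listed or outside-list genes named by rule and called as deposited turned to the opposite call under these scalings or the other alternatives tried.

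**Figure D1:**
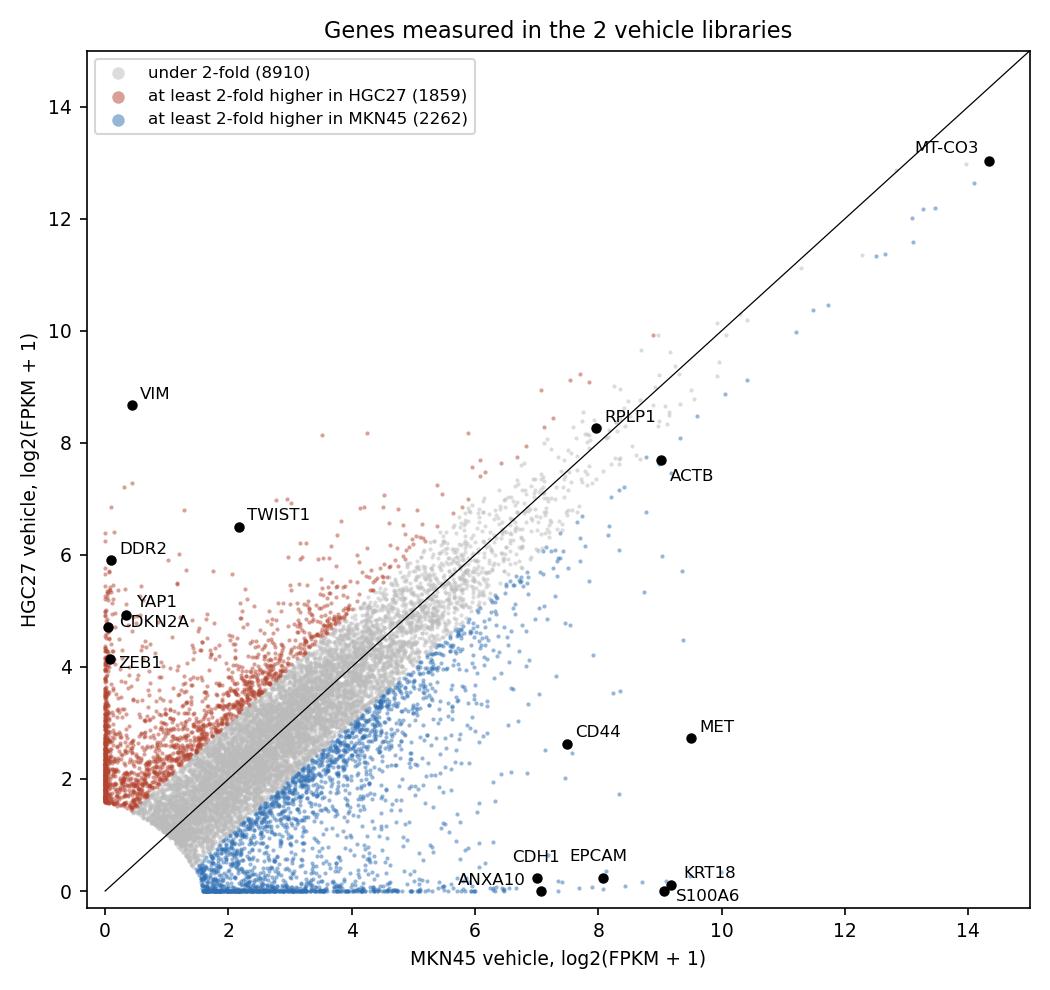
Each point is 1 of 13031 measured genes, with log2(FPKM + 1) in vehicle MKN45 on the horizontal axis and in vehicle HGC27 on the vertical axis, and black points are named genes. Colours mark the 1859 genes at least 2-fold higher in HGC27 and the 2262 at least 2-fold higher in MKN45, and VIM, DDR2 and YAP1 lie near the left edge while KRT18, EPCAM and S100A6 lie near the lower edge.

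The labels call both lines gastric cancer cells, and marker genes were read against this. The 9 epithelial markers summed to 10.1 FPKM in HGC27 and 1715 FPKM in MKN45. All 9 reached 1 FPKM in MKN45 and 2 did so in HGC27, where GRHL2 was at 0. The 9 mesenchymal markers summed to 659 FPKM in HGC27 and 1.46 FPKM in MKN45. Of these, 8 reached 1 FPKM in HGC27 and 0 did so in MKN45. The exception was CDH2, the N-cadherin gene, at 0.0433 FPKM in HGC27 and 0 in MKN45, so the HGC27 library held vimentin but next to no N-cadherin RNA.

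The 9 gastric epithelial markers summed to 0.00178 FPKM in HGC27, where 8 were at 0, and to 229.9 FPKM in MKN45, where 5 reached 1 FPKM and MUC6 and GKN1 were at 0. The 8 intestinal markers summed to 0.925 FPKM in HGC27 and 124 FPKM in MKN45, where CDX1, MUC2 and FABP1 were at 0. Markers of the stomach were therefore close to absent from the HGC27 library and partly present in the MKN45 library. In bulk RNA, fewer cells of a type and less RNA per cell cannot be told apart.

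Markers of other cell types were read the same way. The 8 leukocyte markers summed to 0.549 FPKM in HGC27 and 163 FPKM in MKN45, almost all of it from LYZ, the lysozyme gene, at 161 FPKM. PTPRC, the pan-leukocyte CD45 gene, was at 0 in MKN45 with MS4A1 and CD14. The 6 endothelial markers summed to 0.0736 FPKM in HGC27 and to 0 in MKN45. The 8 fibroblast and smooth muscle markers summed to 70.5 FPKM in HGC27, where 5 reached 1 FPKM, and to 1.33 FPKM in MKN45. This last list shares LUM (40.7 FPKM in HGC27), DCN (9.22 FPKM) and THY1 (6.81 FPKM) with the mesenchymal genes below. The lists therefore move together in part by construction, and the part of the fibroblast list in the mesenchymal genes was not tested.

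Melanocyte markers summed to 7.27 FPKM in HGC27, of which MITF held 6.08 FPKM, and to 1.22 FPKM in MKN45, with MLANA, TYR and SOX10 at 0 in both. Neuroendocrine markers summed to 7.31 and 0.315 FPKM, with CHGA, SST and GAST at 0 in both. NCAM1, which is also in the mesenchymal list below, held 6.07 FPKM of the HGC27 sum. Hepatocyte markers summed to 0.0370 and 0.188 FPKM.

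**Figure D2:**
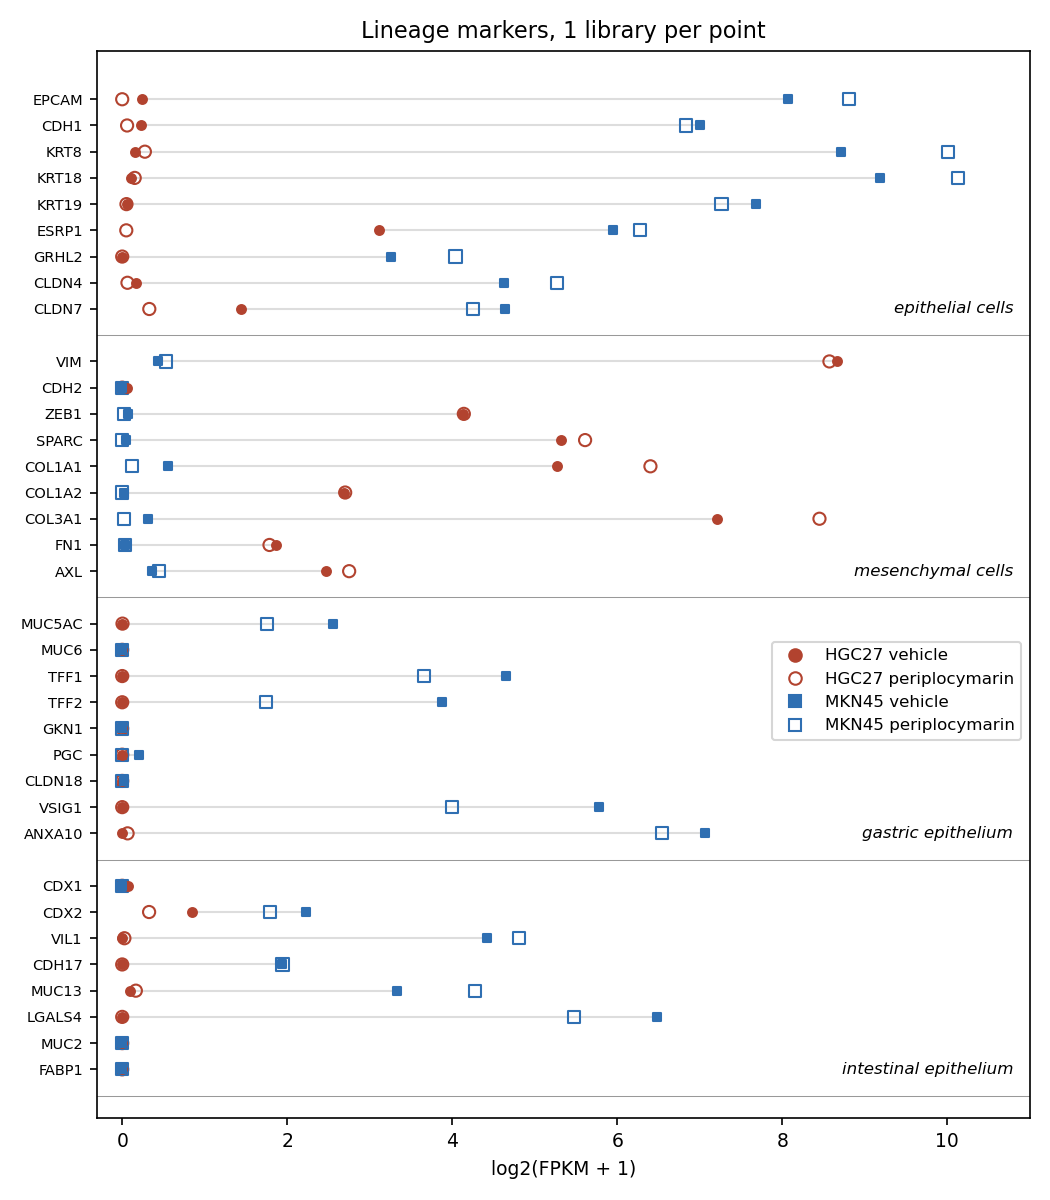
Levels of the epithelial, mesenchymal, gastric and intestinal marker genes as log2(FPKM + 1), with 1 point for vehicle HGC27 and 1 for vehicle MKN45 (filled) joined by a line for each gene, and open symbols for the treated libraries. The epithelial markers lie to the right in MKN45, 8 of the 9 mesenchymal markers lie to the right in HGC27, and each gastric and intestinal marker lies below 1 FPKM in vehicle HGC27.

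Keratins are the intermediate filaments of epithelia. Of 14 listed keratin genes 5 were measured, and all 5 were higher in MKN45, with a median difference of -7.63 against -0.04 over all measured genes. KRT8 stood at 0.113 FPKM in HGC27 and 417 FPKM in MKN45, and its partner KRT18 at 0.0808 FPKM in HGC27 and 581 FPKM in MKN45. KRT19, a simple-epithelium keratin, stood at 0.0398 FPKM in HGC27 and 204 FPKM in MKN45. For KRT7, another keratin of glandular epithelium, the values were 0.388 FPKM in HGC27 and 23.6 FPKM in MKN45. KRT20, typical of intestinal epithelium, was at 0 in both lines.

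Cell junction genes followed the keratins. Of 29 listed genes of adherens and tight junctions 27 were measured, 23 were higher in MKN45 and 0 were higher in HGC27, with a median of -2.42. CDH1 (chr16:68737225-68835548, GRCh38, plus strand) encodes E-cadherin and stood at 0.168 FPKM in HGC27 and 127 FPKM in MKN45. Its log2 ratio of FPKM was -9.56, with a 95% counting interval from -10.10 to -9.07. EPCAM, the epithelial cell adhesion molecule, stood at 0.179 FPKM in HGC27 and 268 FPKM in MKN45.

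Claudins seal tight junctions. CLDN1 stood at 0.239 FPKM in HGC27 and 29.8 FPKM in MKN45, CLDN4 at 0.119 and 23.7 FPKM and CLDN7 at 1.72 and 23.99 FPKM in the same order. CLDN3 had no read in HGC27 and stood at 8.50 FPKM in MKN45. CLDN12 was the exception among the measured claudins, at 6.64 and 12.4 FPKM and within 2-fold. The catenins that tie cadherins to actin were kept in both lines at smaller differences. CTNNB1 stood at 8.28 and 20.7 FPKM, CTNND1 at 12.4 and 40.8 FPKM and CTNNA1 at 28.2 and 57.04 FPKM. TJP1, the scaffold ZO-1, did not pass 2-fold at 7.85 and 6.58 FPKM, whereas its paralog TJP3 (0.149 and 9.15 FPKM) was higher in MKN45.

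Of 15 listed desmosome genes 11 were measured, 7 were higher in MKN45 and 1 was higher in HGC27, with a median of -3.67. JUP, the plakoglobin that links desmosomal cadherins to keratin, stood at 0.113 FPKM in HGC27 and 58.7 FPKM in MKN45. The envoplakin gene EVPL stood at 0.0337 and 48.99 FPKM and PKP3, a plakophilin, at 0.0245 and 16.2 FPKM. DSP, the desmoplakin gene, was retained at a low level in HGC27, with 1.92 FPKM in HGC27 and 24.05 FPKM in MKN45. The desmosomal cadherins did not follow their partners. DSG2 stood at 17.6 and 16.6 FPKM and DSC2 at 3.16 and 3.80 FPKM, both within 2-fold, and DSC1 was at 17.1 FPKM in HGC27 and 0 in MKN45.

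Regulators of epithelial identity showed the same direction. Of 23 listed genes 21 were measured, 18 were higher in MKN45 and 0 were higher in HGC27, with a median of -3.26. GRHL2, a grainyhead factor that activates junction genes, was at 0 in HGC27 and 8.59 FPKM in MKN45. OVOL1 and OVOL2, repressors of the mesenchymal programme, had no read in HGC27, and stood at 5.86 and 3.52 FPKM in MKN45. The ETS-family factors EHF (0.0187 and 77.2 FPKM) and ELF3 (0.0173 and 25.7 FPKM) were higher in MKN45 too.

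ST14, the membrane protease matriptase, was at 0 in HGC27 and 60.4 FPKM in MKN45, which is at least 2825-fold higher against a limit of 3 reads per library. Its inhibitors SPINT1 (0.0700 and 43.6 FPKM) and SPINT2 (0.482 and 53.1 FPKM) were higher in MKN45 as well. RAB25, a small GTPase of apical recycling, was at 0 in HGC27 and 46.3 FPKM in MKN45. ESRP1 and ESRP2 direct epithelial splicing. ESRP2 stood at 0.102 FPKM in HGC27 and 17.3 FPKM in MKN45. ESRP1 kept 7.64 FPKM in vehicle HGC27 against 60.8 FPKM in MKN45, but 0.0348 FPKM in the treated HGC27 library.

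The miR-200 family silences ZEB1 and ZEB2 and is itself repressed by them. Mature microRNAs were not measured by these libraries, and the host transcript MIR200CHG, which carries miR-200c and miR-141, was at 0 in HGC27 and 2.13 FPKM in MKN45. The mature sequences are shown, from RefSeq (GRCh38.p14), with bases 2 to 8, the seed that pairs with target messages, in capitals, because the family falls into 2 seed groups that differ within those bases.
hsa-miR-200b-3p: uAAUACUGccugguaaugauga
hsa-miR-200c-3p: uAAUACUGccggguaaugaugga
hsa-miR-429: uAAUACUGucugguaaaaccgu
hsa-miR-141-3p: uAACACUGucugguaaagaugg
hsa-miR-200a-3p: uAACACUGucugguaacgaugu
The first 3 share the seed AAUACUG and the other 2 share AACACUG.

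ZEB, SNAI and TWIST proteins bind E-box elements such as CAGGTG. RefSeq promoters of 300 bases (250 before to 50 after the gene start, GRCh38.p14) were searched for these letters on both strands, where the reverse strand reads CACCTG. The motif was present in 20.6% of 27305 promoters and in 17.6% of the 9096 promoters matched to measured protein-coding genes. It was present in 24.5% of 1533 promoters of genes higher in MKN45, in 13.2% of 1186 promoters of genes higher in HGC27 and in 16.7% of 6378 promoters of genes within 2-fold. The median GC content was 66.7%, 64.7% and 65.7% in those 3 sets. Among the keratin, junction, desmosome and epithelial regulator genes higher in MKN45, 24 had a promoter in the table and 9 of these held the motif (37.5%). Of 29 promoters of mesenchymal and collagen-list genes higher in HGC27, 4 held it (13.8%). The AP-1 motif TGANTCA was present in 6.26% of promoters of genes higher in MKN45, 3.96% of those higher in HGC27 3.57% of those within 2-fold and 4.08% of those of measured protein-coding genes, beside 7.76% of all promoters. A match is a description of letters, and binding was not measured.

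Promoters of 3 epithelial genes that were low in HGC27 are shown with that of VIM, with each match to CAGGTG or CACCTG in capitals. The 3 are examples from the 9 of 24 epithelial-list promoters that held the motif, and the rest of the 24 held none.
CRB3 promoter, chr19:6464021-6464320, plus strand: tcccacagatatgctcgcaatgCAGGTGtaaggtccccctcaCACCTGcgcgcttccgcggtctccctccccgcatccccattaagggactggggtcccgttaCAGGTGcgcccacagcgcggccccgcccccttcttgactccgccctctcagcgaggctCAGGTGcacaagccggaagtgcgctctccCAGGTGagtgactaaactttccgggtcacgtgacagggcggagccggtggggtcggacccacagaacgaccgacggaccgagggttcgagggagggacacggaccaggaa
RAB25 promoter, chr1:156060910-156061209, plus strand: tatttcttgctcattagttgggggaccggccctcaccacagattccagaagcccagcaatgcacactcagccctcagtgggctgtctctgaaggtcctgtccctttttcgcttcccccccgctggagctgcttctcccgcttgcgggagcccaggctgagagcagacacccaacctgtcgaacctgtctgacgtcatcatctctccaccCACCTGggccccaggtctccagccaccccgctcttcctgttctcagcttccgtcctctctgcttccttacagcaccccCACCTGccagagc
DSP promoter, chr6:7541421-7541720, plus strand: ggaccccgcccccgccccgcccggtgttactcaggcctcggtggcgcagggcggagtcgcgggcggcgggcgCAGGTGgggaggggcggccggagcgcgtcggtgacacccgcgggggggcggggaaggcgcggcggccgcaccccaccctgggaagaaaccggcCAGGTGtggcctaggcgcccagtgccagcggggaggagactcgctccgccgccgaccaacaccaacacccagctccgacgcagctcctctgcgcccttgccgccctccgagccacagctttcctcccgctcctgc
VIM promoter, chr10:17227991-17228290, plus strand: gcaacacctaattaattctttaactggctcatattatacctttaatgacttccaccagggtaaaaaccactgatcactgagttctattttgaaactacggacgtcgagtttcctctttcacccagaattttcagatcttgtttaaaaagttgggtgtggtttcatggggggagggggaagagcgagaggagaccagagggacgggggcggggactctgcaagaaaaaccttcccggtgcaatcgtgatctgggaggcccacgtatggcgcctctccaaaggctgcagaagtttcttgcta
The CRB3 promoter held 5 matches, those of RAB25 and DSP held 2 each, and that of VIM held 0. With the motif in 17.6% of promoters of measured protein-coding genes, a promoter without a match was the common case. CRB3, a polarity protein of the apical membrane, stood at 0.0969 FPKM in HGC27 and 4.88 FPKM in MKN45.

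Transcription factors of the epithelial to mesenchymal transition ran the other way. Of 20 listed genes 15 were measured, 10 were higher in HGC27 and 2 were higher in MKN45, with a median of 2.14. ZEB1 stood at 16.6 FPKM in HGC27 and 0.0502 FPKM in MKN45. SNAI2, which encodes SLUG, stood at 18.5 and 0.0165 FPKM and PRRX1, a homeobox factor of limb and connective tissue, at 37.2 and 0.0164 FPKM. TWIST1 had the highest level of the list in HGC27 at 89.8 FPKM but was also read in MKN45 at 3.51 FPKM. SNAI1 (4.53 and 0.255 FPKM) and ZEB2 (3.27 and 0.00311 FPKM) were at lower levels with the same direction. FOSL1, an AP-1 subunit, was the opposite case, with 0.0493 FPKM in HGC27 and 14.8 FPKM in MKN45, and FOXC2 stood at 0.0428 and 2.40 FPKM.

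Of 39 listed mesenchymal adhesion and filament genes 30 were measured, 22 were higher in HGC27 and 5 were higher in MKN45, with a median of 2.79. VIM (chr10:17228259-17237593, GRCh38, plus strand) has exons that overlap those of the antisense gene VIM-AS1, and no strand setting is given for the counting. It stood at 406 FPKM in HGC27 and 0.346 FPKM in MKN45. Its log2 ratio of FPKM was 10.20, with a 95% counting interval from 9.85 to 10.57. SPARC, a collagen-binding matrix protein, stood at 39.04 FPKM in HGC27 and 0.0351 FPKM in MKN45. POSTN, the periostin gene, stood at 40.7 and 0.0447 FPKM, and LUM, a collagen-fibril proteoglycan, at 40.7 and 0.0508 FPKM. LOX, which cross-links collagen, stood at 23.6 and 0.0339 FPKM and MMP2, a gelatinase, at 7.77 and 0 FPKM.

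Some genes of the list were higher in MKN45 or were low in both lines. CD44, the hyaluronan receptor, stood at 5.20 FPKM in HGC27 and 179 FPKM in MKN45, and S100A4, a calcium-binding protein of motile cells, at 51.6 FPKM in HGC27 and 659 FPKM in MKN45. FN1, the fibronectin gene, was higher in HGC27 but at a low level, with 2.63 FPKM in HGC27 and 0.0252 FPKM in MKN45. CDH11, VCAN and TGFBI did not reach 0.1 FPKM in either line. Thus the HGC27 library held vimentin, lumican and SPARC RNA with little fibronectin RNA.

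Of 26 listed collagen chains 19 were measured, 14 were higher in HGC27 and 4 were higher in MKN45, with a median of 2.55. The fibrillar chains COL1A1 and COL5A2 stood at 37.7 and 0.473 FPKM and 30.1 and 0.119 FPKM. COL1A2, which pairs with COL1A1 in type I collagen, stood at 5.43 FPKM in HGC27 and 0.0125 FPKM in MKN45, and COL11A1 at 24.8 and 0.0209 FPKM. The 4 chains higher in MKN45 included the basement membrane chains COL4A1 (over 2 FPKM in MKN45 and 0.00423 FPKM in HGC27) and COL4A2 (0 and 3.27 FPKM). A further basement membrane chain, COL4A5, was higher in HGC27 at 2.99 and 0.0503 FPKM. COL17A1, the hemidesmosome collagen, was at 0 in HGC27 and 9.51 FPKM in MKN45.

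Basement membrane laminins and their integrin receptors were read next. Of 14 listed laminin and basement membrane genes 12 were measured, with 2 higher in HGC27, 6 higher in MKN45 and a median of -1.06. LAMA3 and LAMB3, chains of an epithelial anchoring laminin, were higher in MKN45 at 3.52 and 47.8 FPKM and 0.0867 and 48.00 FPKM. LAMA2, the muscle laminin chain, was higher in HGC27 at 6.73 and 0.0308 FPKM, as was LAMA1 at 3.79 and 0.00856 FPKM.

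Of 21 listed integrin subunits 12 were measured, with 2 higher in HGC27, 8 higher in MKN45 and a median of -1.90. ITGA6 and ITGB4, which pair into the laminin receptor of hemidesmosomes, stood at 4.73 and 139 FPKM and 0.128 and 162 FPKM. ITGB6, an epithelial subunit, was at 0 in HGC27 and 17.7 FPKM in MKN45. The 2 subunits higher in HGC27 both belong to fibronectin receptors, with ITGA5 at 18.9 and 4.83 FPKM and ITGA4 at 7.95 FPKM in HGC27 and 0 in MKN45.

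Actin genes showed no common direction, with 6 of 21 measured genes higher in each line. CALD1 (10.5 and 0.136 FPKM) and MYL9 (5.89 and 0 FPKM), which serve contractile stress fibres, were higher in HGC27. EZR (19.9 and 92.3 FPKM) and VIL1 (0 and 20.5 FPKM), which build microvilli, were higher in MKN45. The list median was -0.10 as deposited and turned positive with quantile normalization (0.41), library totals alone (0.14) and equal sums of FPKM (0.64).

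**Figure D3:**
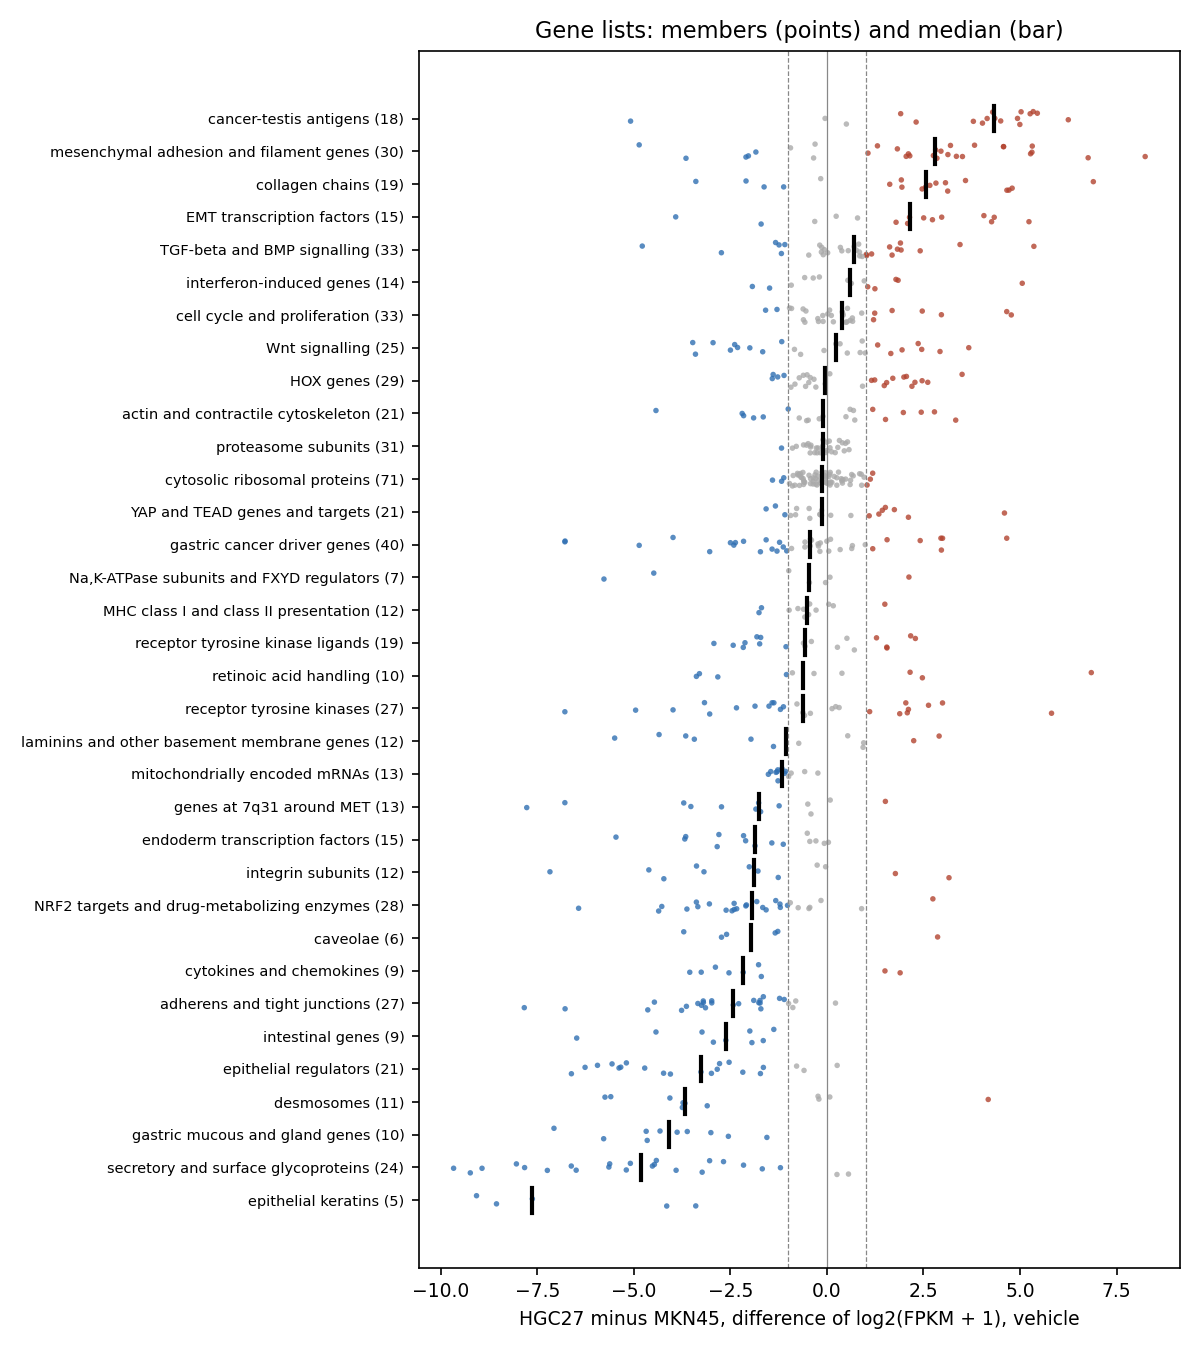
Differences of log2(FPKM + 1), vehicle HGC27 minus vehicle MKN45, for the measured genes of each list shown, with 1 point per gene, a bar at the list median, dashed lines at 1 and -1 and the number of measured genes in parentheses. The medians run from -7.63 for keratins to 4.32 for cancer-testis antigens, beside -0.04 over all 13031 measured genes.

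Genes of the stomach lining were at or near 0 in HGC27, apart from the transmembrane mucin MUC1 at 3.89 FPKM in HGC27 and 58.9 FPKM in MKN45. Of 23 listed gastric genes 10 were measured and all 10 were higher in MKN45, with a median of -4.10. ANXA10, an annexin of gastric epithelium, was at 0 in HGC27 and 133 FPKM in MKN45, at least 2593-fold higher. VSIG1, an adhesion protein of stomach epithelium, was at 0 and 53.95 FPKM. The trefoil peptides TFF1 and TFF2, which protect the mucus layer, had no read in HGC27, and MKN45 held 24.2 FPKM of TFF1 and 13.7 FPKM of TFF2. MUC5AC, the main surface mucin, stood at 0.00178 and 4.87 FPKM. The chief-cell and parietal-cell genes LIPF, ATP4A and ATP4B were at 0 in both lines, and CLDN18 did not reach 0.1 FPKM.

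Intestinal genes added to the same side, with 9 of 32 listed genes measured, all 9 higher in MKN45 and a median of -2.62. LGALS4, a galectin of intestinal epithelium, was at 0 in HGC27 and 88.1 FPKM in MKN45. CDX2, the intestinal master regulator, was low in both at 0.802 and 3.67 FPKM, and FABP1 and MUC2 were at 0 in both. The MKN45 library thus held RNA of both gastric and intestinal genes, each in part.

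The endoderm transcription factors that sit above these programmes were higher in MKN45 for 10 of 15 measured genes and higher in HGC27 for 0, with a median of -1.86. SOX9 stood at 0.181 FPKM in HGC27 and 51.05 FPKM in MKN45. FOXA2 stood at 0.513 and 18.4 FPKM, HNF4A at 0.0549 and 6.33 FPKM and GATA6 at 4.02 and 21.4 FPKM. FOXA3 had no read in HGC27 and stood at 6.16 FPKM in MKN45. HNF4G (1.27 and 1.37 FPKM) and FOXA1 (0.892 and 1.69 FPKM) did not pass 2-fold.

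Of 24 measured secretory and surface glycoprotein genes 22 were higher in MKN45 and 0 were higher in HGC27, with a median of -4.80. AGR3, a disulfide isomerase of secretory cells, stood at 0.0538 FPKM in HGC27 and 238 FPKM in MKN45. CEACAM5, the carcinoembryonic antigen, stood at 0.0233 and 268 FPKM, S100P, a calcium-binding protein, at 2.30 and 324 FPKM and TM4SF1, a surface tetraspan protein, at 0.124 and 169 FPKM. The mucin-type glycosylation enzymes GCNT3 (0.0383 and 92.5 FPKM), B3GNT3 (0 and 35.6 FPKM) and GALNT3 (0 and 33.03 FPKM) were also higher in MKN45. MSLN, the mesothelin gene, was read at similar levels, 19.9 and 16.5 FPKM. CEACAM family members share sequence, so reads may be divided among them with error.

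Receptor tyrosine kinases were split between the lines, with 8 of 27 measured genes higher in HGC27 and 12 higher in MKN45. MET (chr7:116672390-116798386, GRCh38, plus strand), the hepatocyte growth factor receptor, stood at 5.61 FPKM in HGC27 and 727 FPKM in MKN45. Its log2 ratio of FPKM was -7.02, with a 95% counting interval from -7.10 to -6.94. MST1R, the related receptor RON, was at 0 in HGC27 and 29.96 FPKM in MKN45. ERBB3 (0.506 and 22.8 FPKM), EGFR (0.259 and 9.31 FPKM) and EPHA2 (4.76 and 50.8 FPKM) were higher in MKN45 as well.

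Among the 8 receptors higher in HGC27, DDR2, which binds fibrillar collagen, stood at 58.9 FPKM in HGC27 and 0.0636 FPKM in MKN45, while DDR1, its epithelial relative, stood at 0.489 and 6.55 FPKM. PDGFRA, a platelet-derived growth factor receptor of connective tissue, stood at 5.23 and 0.00568 FPKM. AXL stood at 4.55 and 0.285 FPKM and the WNT5A receptor ROR2 at 7.55 and 1.08 FPKM. ROR1 stood at 5.58 and 2.06 FPKM and PTK7 at 17.1 and 3.29 FPKM. The ephrin receptors EPHA3 and EPHA5 were at 6.97 and 2.70 FPKM in HGC27 and at 0 in MKN45, opposite to EPHA2. MERTK, a relative of AXL, was higher in MKN45 at 5.71 and 14.4 FPKM. HGF, the ligand of MET, was at 0.0731 FPKM in HGC27 and 0 in MKN45. The epidermal growth factor family ligands TGFA (0.233 and 4.36 FPKM) and HBEGF (0.581 and 7.495 FPKM) were higher in MKN45, and the platelet-derived ligands PDGFC (6.86 and 2.23 FPKM) and PDGFD (3.50 and 0 FPKM) were higher in HGC27.

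The genes next to MET shared its direction. Within 1 Mb of the MET start, 5 other protein-coding genes were measured and all 5 were higher in MKN45, with a median of -3.52. They were TES (0.283 and 279 FPKM), CAV2 (1.34 and 29.5 FPKM), CAV1 (2.55 and 22.5 FPKM), CAPZA2 (10.5 and 131 FPKM) and ST7 (4.80 and 18.05 FPKM), in order along the chromosome with MET between CAV1 and CAPZA2. From 1 to 2 Mb the median of 3 genes was -0.41, from 2 to 5 Mb that of 10 genes was -0.03, and from 5 to 10 Mb that of 18 genes was 0.07. These medians pool both sides of MET. Of the 10 genes from 2 to 5 Mb, 2 were higher in HGC27 and 3 were higher in MKN45. The 3 lay together on the CAPZA2 side, 4.19 to 4.72 Mb from the MET start. They were TSPAN12 (4.37 and 17.3 FPKM), ING3 (5.98 and 23.99 FPKM) and FAM3C (11.3 and 95.02 FPKM). Gene copy number was not measured. The caveolin genes lie within 1 Mb of MET, and the caveolar coat gene CAVIN1, which lies elsewhere, had the opposite direction at 20.7 and 1.98 FPKM.

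Around CDKN2A (chr9:21967753-21995301, GRCh38, minus strand), which encodes the cell cycle inhibitors p16 and p14ARF, the direction was reversed. CDKN2A stood at 25.1 FPKM in HGC27 and 0.0349 FPKM in MKN45, and its neighbour CDKN2B, which encodes p15, at 6.91 and 0.0136 FPKM. MTAP, a methionine salvage enzyme, was at 6.74 FPKM in HGC27 and 0 in MKN45, and KLHL9 was at 12.2 FPKM and 0. On the other side DMRTA1 was read in both, at 1.71 and 1.35 FPKM. Within 1 Mb 3 of 4 measured neighbours were higher in HGC27, and from 1 to 2 Mb 3 of 3 were. The medians were 2.96 and 2.91. Unlike around MET, the median stayed positive farther out. It was 0.90 for 10 genes from 2 to 5 Mb and 0.81 for 9 genes from 5 to 10 Mb. The median of measured protein-coding genes on chromosome 9 was 0.35. Exons of CDKN2A and MTAP overlap other annotated genes, so a few reads may belong to those.

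**Figure D4:**
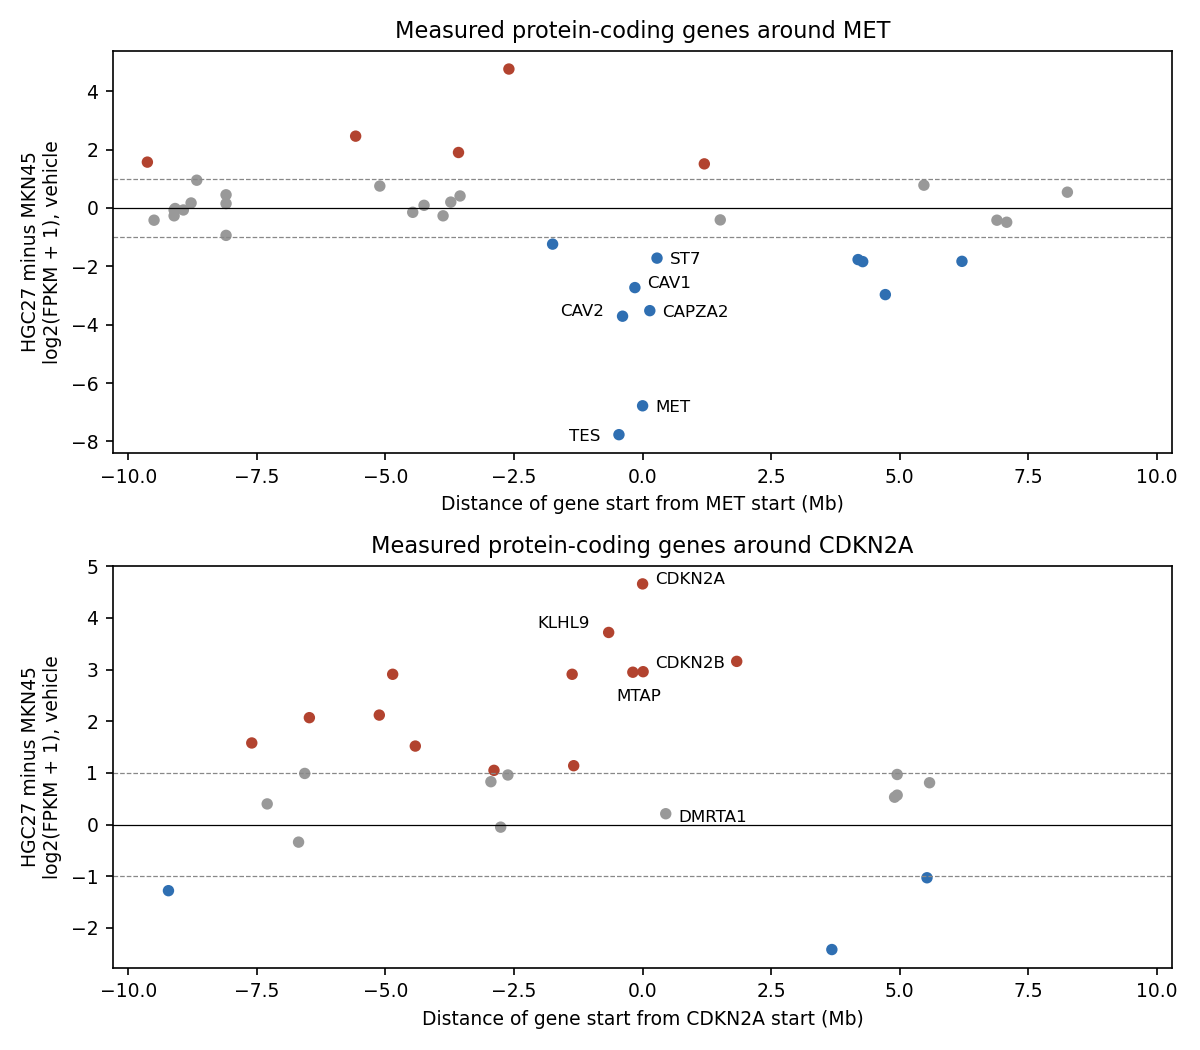
Differences of log2(FPKM + 1), vehicle HGC27 minus vehicle MKN45, for measured protein-coding genes by distance of their start from the start of MET (upper panel) and of CDKN2A (lower panel), with dashed lines at 1 and -1. The 5 genes within 1 Mb of MET lie below -1 with a median of -3.52, and KLHL9, MTAP and CDKN2B lie above 1 near CDKN2A.

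SMAD4 (chr18:51028394-51085045, GRCh38, plus strand), the shared effector of TGF-beta and BMP receptors, was nearly absent from MKN45 at 0.00414 FPKM against 4.36 FPKM in HGC27. Its neighbour ELAC1 was read in both, at 3.85 and 1.78 FPKM. YAP1, the Hippo pathway coactivator, was nearly absent from MKN45 at 0.258 FPKM against 29.5 FPKM in HGC27. TGFBR2, the type II TGF-beta receptor, was nearly absent from HGC27 at 0.0860 FPKM against 28.8 FPKM in MKN45. In treated HGC27 and treated MKN45, SMAD4 stood at 6.37 and 0 FPKM, YAP1 at 61.9 and 0.0731 FPKM and TGFBR2 at 0.0682 and 58.8 FPKM. Exons of SMAD4 overlap those of ENSG00000267699, and reads of the overlaps cannot be told apart.

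Next to no RNA was thus read for the receptor TGFBR2 in HGC27 and for the effector SMAD4 in MKN45. Of 33 measured genes of the TGF-beta and BMP list 11 were higher in HGC27 and 6 were higher in MKN45, with a median of 0.71. ID3, a BMP target, stood at 42.3 FPKM in HGC27 and 0.0544 FPKM in MKN45, while its relative ID1 did not differ by 2-fold at 33.1 and 36.6 FPKM. TGFB2, a ligand, was at 2.79 FPKM in HGC27 and 0 in MKN45, and BMP4 stood at 1.77 and 17.4 FPKM.

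YAP1 had a counterpart in WWTR1, the paralog TAZ, at 9.05 and 18.2 FPKM, a difference just under the threshold on the log2(FPKM + 1) scale. Of 21 measured YAP and TEAD genes and targets 7 were higher in HGC27 and 3 were higher in MKN45. The 3 were the target genes CCN1 (3.22 and 9.63 FPKM), CCN2 (1.41 and 6.16 FPKM) and F3 (1.06 and 3.38 FPKM). Besides YAP1, the 7 included TEAD1, TEAD2, AMOT, ARHGEF17 and DLC1, with differences of 1.10, 1.75, 1.43, 1.35 and 1.51. Members of the list thus went in both directions. The list median was -0.14 as deposited and turned positive with library totals alone (0.07), equal sums of FPKM (0.27) and a minimum mean of 10 FPKM (0.86).

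Of 25 measured Wnt pathway genes 7 were higher in HGC27 and 9 were higher in MKN45. AXIN2, a feedback target of beta-catenin, stood at 20.2 FPKM in HGC27 and 0.663 FPKM in MKN45, and the nuclear partner LEF1 at 7.66 and 0.137 FPKM. TCF7L2, another nuclear partner, was higher in MKN45 at 2.57 and 16.7 FPKM. NKD1 (5.61 and 0.284 FPKM) and NOTUM (4.47 and 0.419 FPKM), further feedback inhibitors, were higher in HGC27. The inhibitor DKK1 went the other way, with a difference of -2.95. Receptors and surface regulators higher in MKN45 included LGR4 at 13.3 and 158 FPKM, LRP5 at 5.34 and 66.1 FPKM, FZD5 at 1.58 and 12.5 FPKM and RNF43, a ligase that removes frizzled receptors, at 0.235 and 5.98 FPKM. The receptor FZD1 was higher in HGC27 at 5.11 and 0.941 FPKM, and FZD7 (5.62 and 2.51 FPKM), FZD2 (2.65 and 2.84 FPKM), LRP6 (3.87 and 7.71 FPKM) and ZNRF3 (4.64 and 3.80 FPKM) did not pass the threshold.

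Among genes altered in gastric cancer, 7 of 40 measured genes were higher in HGC27 and 16 were higher in MKN45, with a median of -0.43. MYC stood at 61.3 FPKM in HGC27 and 6.81 FPKM in MKN45. PIK3CA (2.40 and 2.40 FPKM) and RB1 (13.3 and 12.8 FPKM) lay within 2-fold. CDKN1A, which encodes the cyclin-dependent kinase inhibitor p21, stood at 3.96 and 13.9 FPKM.

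Of 33 measured proliferation genes 24 lay within 2-fold, with a median of 0.40. The other genes were 7 higher in HGC27 (21.2%, beside 14.3% of all measured genes) and 2 higher in MKN45 (6.06%, beside 17.4%). MKI67 stood at 26.7 FPKM in HGC27 and 41.2 FPKM in MKN45, TOP2A at 112 and 83.9 FPKM and PCNA at 95.04 and 112 FPKM. Regulators of the G1 step included genes with larger differences. CCND2, the cyclin D2 gene, stood at 33.7 FPKM in HGC27 and 0.268 FPKM in MKN45, CCND1 lay within 2-fold at 39.00 and 74.4 FPKM, and the inhibitor CDKN2C stood at 17.03 and 2.26 FPKM.

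Cancer-testis antigens, which are normally kept to germ cells and placenta, were read mainly in HGC27. Of 37 listed genes 18 were measured, 15 were higher in HGC27 and 1 was higher in MKN45, with a median of 4.32. CTAG2 was at 75.1 FPKM in HGC27 and 0 in MKN45, and MAGEA4 at 29.6 FPKM and 0. MAGEA6 was read at similar levels in both, 39.3 and 40.6 FPKM, and MAGEA3 stood at 60.3 and 11.4 FPKM. CT83 was the exception, at 0 in HGC27 and 32.9 FPKM in MKN45. CTAG1A with CTAG1B, XAGE1A with XAGE1B and several MAGEA genes are near-identical copies, so their separate values are uncertain and they are not independent members.

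Position genes of the HOX clusters were compared by cluster. Of 29 measured HOX genes 12 were higher in HGC27 and 4 were higher in MKN45. The measured HOXD genes were all higher in HGC27: HOXD4 stood at 7.99 and 0.955 FPKM, HOXD10 stood at 10.6 and 0.0218 FPKM and HOXD13 at 7.89 and 0.831 FPKM, while HOXD8, HOXD9 and HOXD11 were at 2.26, 2.98 and 5.11 FPKM in HGC27 and at 0 in MKN45. HOXA13 stood at 43.2 and 6.998 FPKM. HOXA10 (2.68 and 8.80 FPKM) and HOXB7 (4.67 and 12.7 FPKM) were higher in MKN45. The list median was -0.04 as deposited and turned positive with library totals alone (0.21), equal sums of FPKM (0.38), no minimum (0.01) and a minimum mean of 10 FPKM (2.06).

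Xenobiotic enzymes and NRF2 targets were mostly higher in MKN45, with 21 of 28 measured genes against 1 higher in HGC27 and a median of -1.95. UGT1A6, a glucuronidation enzyme, stood at 0.0180 FPKM in HGC27 and 86.7 FPKM in MKN45. ALDH3A1, an aldehyde dehydrogenase, stood at 2.84 and 77.6 FPKM, ABCC3, an export pump, at 0.0548 and 19.4 FPKM and NQO1, a quinone reductase, at 58.1 and 207 FPKM. GSTA4, a glutathione transferase, was the exception at 18.7 and 1.94 FPKM. The drug export pump gene ABCB1 did not reach 0.1 FPKM in either line. UGT1A genes share exons, which makes the split of reads among them uncertain.

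The Na,K-ATPase is the target of cardiac glycosides, so its beta subunits and regulators were read in the vehicle libraries. Its beta subunit ATP1B1 stood at 0.285 FPKM in HGC27 and 27.7 FPKM in MKN45, whereas ATP1B3 stood at 36.7 and 73.7 FPKM, just under the threshold on the log2(FPKM + 1) scale. FXYD3, a regulator of the pump in epithelia, stood at 0.0274 and 55.2 FPKM, and FXYD1 was at 3.36 FPKM in HGC27 and 0 in MKN45.

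Of 10 measured retinoic acid genes 3 were higher in HGC27 and 4 were higher in MKN45. RARG, a retinoic acid receptor, stood at 25.3 and 3.73 FPKM, and STRA6, the retinol importer, at 3.56 and 0.0248 FPKM, both higher in HGC27. The synthesis enzymes ALDH1A1 (3.93 and 50.3 FPKM) and ALDH1A3 (0.116 and 10.00 FPKM) were higher in MKN45. Of the retinoic acid carriers, CRABP2 had the largest difference of the measured genes in the list, with 154 FPKM in HGC27 and 0.351 FPKM in MKN45, and CRABP1 was at 0 in HGC27 and 6.08 FPKM in MKN45.

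Immune genes were read for interferon responses, antigen presentation and cytokines. Of 14 measured interferon-induced genes 5 were higher in HGC27 and 2 were higher in MKN45, with IFITM2, a viral entry inhibitor, at 40.8 and 0.253 FPKM. Of 12 measured antigen presentation genes 9 lay within 2-fold, with B2M at 70.2 and 107 FPKM. The class II genes HLA-DRA and CD74 were at 0 in both. Of 9 measured cytokine genes 7 were higher in MKN45, among them LIF (0.544 and 17.1 FPKM) and CXCL16 (0.988 and 17.96 FPKM), and CCL2 was at 2.72 FPKM in HGC27 and 0 in MKN45.

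Genes used by every cell gave the background. Of 71 ribosomal protein genes 65 lay within 2-fold, with 3 higher in each line and a median of -0.13 that turned positive with quantile normalization (0.17), library totals alone (0.13) and equal sums of FPKM (0.36). Of 31 proteasome genes 30 lay within 2-fold, with a median of -0.11 that turned positive under the same scalings (0.14, 0.14 and 0.37). Of 13 mitochondrially encoded messages 9 were higher in MKN45, with a median of -1.16 that moved to -0.11 after quantile normalization. The share of mitochondrial RNA therefore moved with the lines, and its part in the differences of other genes was not tested.

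Outside the lists, the 15 genes with the largest difference in each direction were taken by rule among those averaging 10 FPKM or more. On the HGC27 side GJA1, the connexin 43 gap junction gene, stood at 51.6 FPKM in HGC27 and 0.0479 FPKM in MKN45. MFAP4 (50.5 and 0.0387 FPKM) and PCOLCE (110.1 and 1.44 FPKM), which assist elastic and collagen fibres, belong with the matrix genes above. LHX9 (40.1 and 0.0182 FPKM) and MAB21L1 (35.8 and 0.0342 FPKM) are developmental regulators, and MAP1B (31.5 and 0.0130 FPKM) is a microtubule protein of neurons. RHOXF2B, a reproductive homeobox gene with a near-identical copy, was at 49.5 FPKM in HGC27 and 0 in MKN45. The others were an intergenic RNA (ENSG00000230159), GPNMB, PRAC1, TMEM119, EFHD1, CPE, QPRT and PIK3R2, with HGC27 levels from 31.5 FPKM for MAP1B to 110.1 FPKM for PCOLCE over the 15. PIK3R2 is uncertain, because the overlapping gene model ENSG00000268173 had the opposite direction at 0.0422 and 7.98 FPKM.

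On the MKN45 side S100A6, a calcium-binding protein of epithelial and other cells, was at 0 in HGC27 and 533 FPKM in MKN45, at least 5568-fold higher. GPX2, a gastrointestinal glutathione peroxidase, stood at 0.0694 FPKM in HGC27 and 346 FPKM in MKN45. UPK1B, a uroplakin, was at 0 and 129.7 FPKM, and LAD1, an anchoring filament protein, stood at 0.0475 and 79.7 FPKM. FOXQ1 (0.0582 and 60.7 FPKM) and FOXJ1 (0.0359 and 75.1 FPKM) are forkhead factors, the latter known from ciliated cells. CEMIP, a hyaluronan-degrading protein, was at 0 and 62.9 FPKM. The remaining genes were GPRC5A, MALL, PPP1R1B, C19orf33, TNS4, PRR15L, SERPINB1 and POF1B, with MKN45 levels from 60.2 FPKM for POF1B to 144 FPKM for GPRC5A.

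Measured protein-coding genes were also read in windows of 15 neighbouring genes. The highest window median was 3.48, on chromosome X from 150692971 to 152760222, with 11 genes higher in HGC27 and 0 higher in MKN45; this window holds MAGEA genes. It was followed by 3.17 on chromosome 8 from 123041968 to 124979389, with 14 of 15 genes higher in HGC27, and by 2.12 on chromosome 9 from 16409503 to 23826337, which holds CDKN2A. The lowest were -1.87 on chromosome 13 from 109752698 to 113364148, with 13 of 15 genes higher in MKN45, and -1.83 on chromosome 7 from 113876777 to 122886759, which holds MET. Medians of whole chromosomes ran from -0.42 on chromosome 3 to 0.35 on chromosome 9.

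The treated libraries gave a second library of each line that the choice of genes did not use, although the treatment makes it no replicate. Of the 1859 genes higher in vehicle HGC27, 1242 (66.8%) were also called higher in treated HGC27 than in treated MKN45, beside 16.5% of 11681 genes measured in the treated pair. Of the 2262 genes higher in vehicle MKN45, 1625 (71.8%) were called the same way in the treated pair, beside 19.1%. The 66.8% and 71.8% were taken without a minimum in the treated pair, whereas the 16.5% and 19.1% needed a treated mean of at least 1 FPKM. The sign was kept by 95.6% and 96.2%, beside 70.7% of the genes within 2-fold in vehicle. The opposite call was made for 6 and 8 genes. Across 11262 genes measured in both pairs the vehicle and treated differences had a Pearson correlation of 0.890 and a Spearman correlation of 0.806, as a description over genes that share their library.

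The marker genes called between the vehicle libraries kept their direction in the treated libraries, as did MET and CDKN2A. CDH1 stood at 0.0419 and 113 FPKM in treated HGC27 and treated MKN45, KRT18 at 0.111 and 1120.4 FPKM and VIM at 379.6 and 0.446 FPKM. MET stood at 4.68 and 1547 FPKM and CDKN2A at 24.3 and 0.0216 FPKM. List medians in the treated pair were -7.21 for keratins, -2.59 for junctions, 3.02 for EMT transcription factors and 2.74 for collagens. Genes with the opposite call in the treated pair included RND3, an inhibitor of cell contractility, and AKAP12, a kinase scaffold. RND3 stood at 10.9 FPKM in HGC27 and 3.01 FPKM in MKN45 in vehicle but at 19.9 and 49.1 FPKM in the treated libraries. AKAP12 stood at 7.41 and 2.19 FPKM in vehicle but at 14.1 and 29.5 FPKM in the treated libraries.

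**Figure D5:**
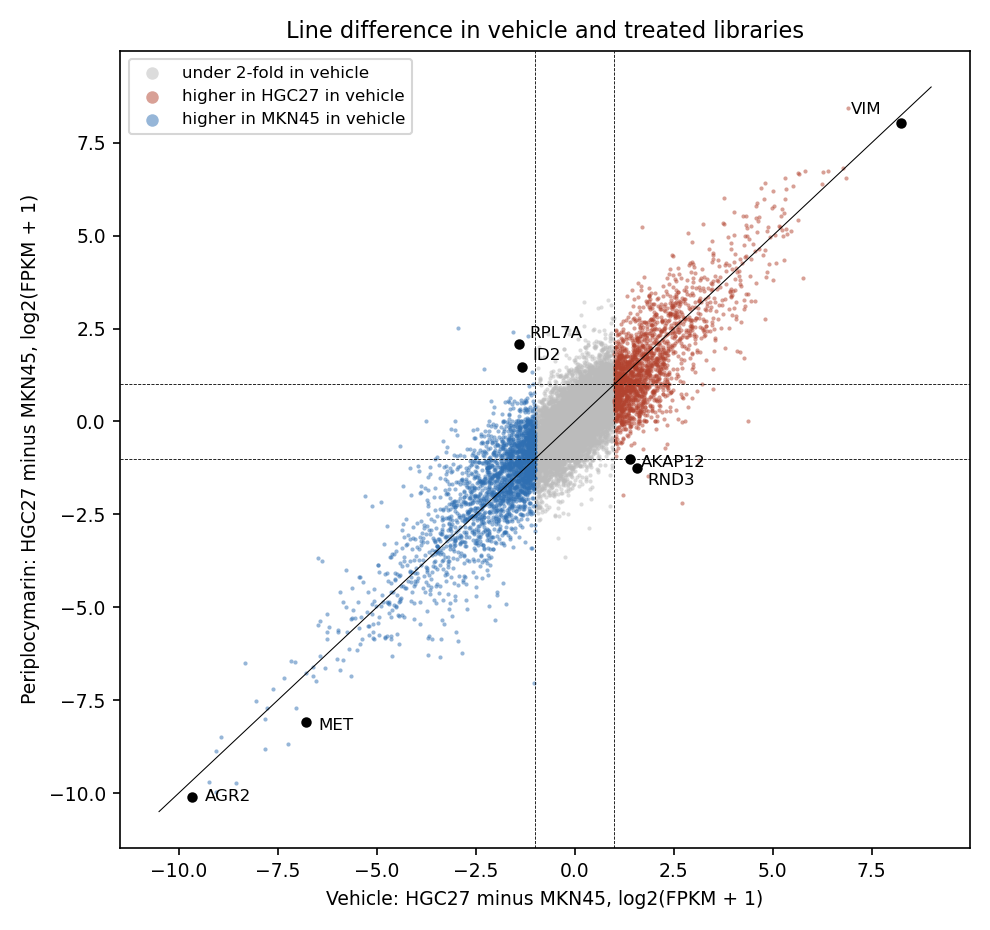
Each point is 1 of the 13031 genes measured in the vehicle pair. The vehicle difference (HGC27 minus MKN45, log2(FPKM + 1)) is on the horizontal axis and the difference of the treated libraries on the vertical axis. Colours give the vehicle call, dashed lines lie at 1 and -1, and the solid line is the diagonal. Most points lie along the diagonal, and RND3, AKAP12, RPL7A and ID2 lie in the quadrants of opposite sign.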

How the data were processed

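Poly(A) RNA libraries of HGC27 and MKN45 cells, 1 per line and treatment, were compared from 1 table of 62710 Ensembl genes. Groups came from the sample titles. Tools in the submitters' processing notes were HISAT2 2.1.0 and fastp 2.0, with the build hg38 and no stated role. For the counter, annotation, strand setting and batch, nothing is given in the sources used here. The values the authors deposited carry no unit name and were read as FPKM. Products of FPKM and GENCODE 29 exon length came in whole steps, within 0.001, for a part of the genes. For others, a gene length that gave whole reads was fitted from the ratios between libraries. Together, whole reads were recovered for 94.9% of measured genes. Both routes gave the reads used for depth and Clopper-Pearson intervals. The step size gave the limits of 3 reads at the GENCODE 29 length, and implied library sizes of 32261784 and 36857424 rather than the recovered totals.

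Differences of log2(FPKM + 1) were taken over genes averaging 1 FPKM or more and called at 1 or more, with no test, since each group is 1 library. Alternatives were a pseudocount of 0.1, no minimum, a minimum of 10, quantile normalization, equal sums of FPKM, centring on the median and, chosen after seeing the data, library totals alone. The calling was tested on simulated data. The members, 35 gene lists and 10 marker lists were chosen with earlier results of these data known. Named genes are all markers, in each list up to 6 per direction with the largest difference and others by role, and the 15 per direction outside the lists. Genes with opposite calls in the treated pair and genes near MET, CDKN2A and SMAD4 were named after their values were seen. Some genes and 1 list are not reported here. Symbols were matched for 42329 of 62710 identifiers. Python 3.11.15, pandas 2.3.3, numpy 2.4.6, scipy 1.17.1 and matplotlib 3.10.9 were used.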

Additional observations from a re-analysis of the deposited data

Results flagged for a closer look

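These results had opposite directions between the lines in the vehicle and in the treated libraries. With 1 library per line and treatment the difference between the pairs was not tested. ID2, an inhibitor of basic helix-loop-helix factors, had a difference of -1.33 in vehicle and 1.48 in the treated pair, with 27.2 and 69.9 FPKM in vehicle HGC27 and MKN45 and 41.4 and 14.3 FPKM in the treated libraries. RPL7A, a ribosomal protein gene whose introns hold small nucleolar RNAs, had -1.41 and 2.08.

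In 6 lists the median also changed sign. The median of the actin and contractile cytoskeleton list was -0.10 in vehicle and 0.33 in the treated pair. That of retinoic acid handling was -0.61 and 0.18, and that of HOX genes -0.04 and 0.49. That of YAP and TEAD genes and targets was -0.14 and 0.19. Ribosomal proteins gave -0.13 and 0.41, and proteasome subunits -0.11 and 0.20.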

How the results depend on the processing

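No named gene with a called difference turned to the opposite call, and turned calls were not counted over all genes. The larger count was on the MKN45 side as deposited, and on the HGC27 side with quantile normalization (2215 against 2134), library totals alone (2623 against 1892) and equal sums of FPKM (3236 against 1476). With a minimum mean of 10 FPKM, 423 genes were higher in HGC27 and 790 in MKN45 (34.9% of calls on the HGC27 side against 45.1% at a minimum of 1). Apart from these and equal sums, every setting kept the counts within 1.5 times, from 1950 to 2623 for HGC27 and from 1892 to 2736 for MKN45. The share of called genes with the same call in the treated pair was 69.6%, and 75.9% with a pseudocount of 0.1. Lists with an absolute median of at least 1 numbered 19 of 35, and from 13 without a minimum to 25 at a minimum of 10. Of 428 named genes called, 428 kept their call with a pseudocount of 0.1, 426 after centring, 406 with library totals alone, 402 of 416 after quantile normalization and 376 of 423 with equal sums.

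At a minimum of 10 FPKM the medians of the TGF-beta and BMP (-0.62), Wnt (-2.95), retinoic acid (2.47), HOX (2.06) and YAP and TEAD (0.86) lists had the opposite sign to the main value. Without a minimum those of the HOX (0.01), actin (0.18), receptor tyrosine kinase (0.02), kinase ligand (0.05) and interferon (-0.02) lists had it, and with equal sums that of the Na,K-ATPase list (0.03). With 1 library per line nothing measures variation between cultures, and genes under 3 reads have no lower limit. No paired analysis was possible because each group has 1 library and the labels carry no replicate numbers.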

Other observations

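Of 14 genes with opposite calls in the vehicle and treated pairs, several are readthrough or overlapping gene models. RPL17-C18orf32 stood at 24.1 and 1.83 FPKM in vehicle HGC27 and MKN45 and at 4.75 and 10.7 FPKM in the treated libraries. RPS10-NUDT3 stood at 20.6 and 8.31 FPKM and 7.20 and 31.5 FPKM in the same order, and BIVM-ERCC5 at 2.70 and 0.0285 FPKM and 0 and 1.75 FPKM. The histone gene H2BC5 stood at 1.44 and 4.16 FPKM in vehicle and 7.396 and 2.34 FPKM in the treated libraries.

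PPP1R3A, a glycogen-targeting phosphatase subunit of muscle that lies near MET, stood at 26.5 FPKM in HGC27 and 0.0176 FPKM in MKN45, against the direction of the genes next to MET. Near CDKN2A, MLLT3, a transcription elongation factor subunit, stood at 13.1 and 0.880 FPKM and ELAVL2, a neuronal RNA-binding protein, at 8.195 and 0.0317 FPKM, both higher in HGC27. TUSC1, farther along chromosome 9, was at 0 in HGC27 and 4.34 FPKM in MKN45.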
